A study of Mus musculus with 2 samples.

Results

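The striated muscle microRNA (miRNA) genes are 9 genes of skeletal and cardiac muscle, chosen by name from the 1973 genes counted in small RNA libraries of mouse stomach: Mir206, Mir133b, Mir1a-1, Mir1b, Mir133a-1, Mir133a-2, Mir208a, Mir208b and Mir499. All 9 had a row in the count tables, 7 had a read, and 4 reached the mean level of 10 counts-per-million (CPM) needed for a test between libraries. The series held 1 group of 2 libraries, each from a pool of stomachs of healthy male and female B6NCrl embryos at 16.5 days of gestation. The labels name 41 embryos for replicate 2 and give no number for replicate 1. Both carry the same donor label, and no treatment, genotype or other tissue was compared. Levels in CPM are relative to the reads assigned to genes on the sense strand, which numbered 7734578 in replicate 1 and 7983714 in replicate 2.

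A miRNA is cut from the hairpin of a longer transcript and guides a silencing complex to messenger RNAs, mainly through its seed near the 5′ end. The miR-1, miR-133 and miR-206 genes lie in pairs and are switched on by the regulators of muscle differentiation such as MyoD and MEF2. miR-208a, miR-208b and miR-499 sit inside genes for myosin heavy chains, the motor proteins of striated muscle, and are made with them. The muscle coat of the stomach is smooth muscle, whose typical miRNAs are miR-143 and miR-145. In whole tissue, fewer cells of a type and less RNA per cell cannot be told apart.

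The genes lie at several kinds of locus. Mir206 (chr1:20679010-20679082, plus strand, GRCm38, the assembly that mm10 names) and Mir133b (chr1:20682769-20682887, plus strand) are 3686 bases apart within the long non-coding gene Gm28653. Mir133b lies wholly in an exon of Gm28653, and Mir206 partly in one. Their hairpins from RefSeq (GRCm38.p6) are shown because this pair differed most between the libraries, with the 5p and 3p mature arms in capitals.
Mir206 hairpin: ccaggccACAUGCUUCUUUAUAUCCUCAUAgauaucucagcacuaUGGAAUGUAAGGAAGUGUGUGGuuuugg
Mir133b hairpin: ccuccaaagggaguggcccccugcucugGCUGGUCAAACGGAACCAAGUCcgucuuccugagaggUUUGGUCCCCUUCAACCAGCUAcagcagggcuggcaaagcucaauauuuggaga

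A second kind of locus is the myosin intron. Mir208a (chr14:54949060-54949142, minus strand) lies in an intron of Myh6, Mir208b (chr14:54975700-54975776, minus strand) in an intron of Myh7, and Mir499 (chr2:155622880-155622958, plus strand) in an intron of Myh7b. Myh6 encodes the myosin of the adult mouse heart, and Myh7 that of the fetal heart and of slow skeletal fibres. The mature arms below are printed to show how the members group by seed, which is in capitals (bases 2 to 8 from the 5′ end).
miR-206-3p: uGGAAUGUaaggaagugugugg
miR-133b-3p: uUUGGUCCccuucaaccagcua
miR-208a-3p: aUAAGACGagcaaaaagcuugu
miR-208b-3p: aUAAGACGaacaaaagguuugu
miR-499-5p: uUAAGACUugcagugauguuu
The arms of miR-208a and miR-208b share the whole seed and were identical at 19 of 22 positions when aligned from the 5′ end without gaps. miR-499-5p matched their seed at 6 of 7 bases, with all 6 in a row from base 2. Within the 1738 mature sequences of the RefSeq table, the seed of miR-206-3p recurred in miR-6349 and miR-6382, whose genes had 0 reads in both libraries. The table held entries for 6 of the 9 genes, and for Mir1a-1 only its 5p arm. The search for the seed of miR-206-3p therefore did not cover the 3p arm of Mir1a-1. Mir1b, Mir133a-1 and Mir133a-2 had none.

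The remaining genes are the miR-1 and miR-133a copies. Mir1a-1 (chr2:180389048-180389124, plus strand) and Mir133a-2 (chr2:180398379-180398482, plus strand) lie 9254 bases apart, outside any annotated gene on their strand. Mir133a-1 (chr18:10782909-10782976, minus strand) lies in an intron of Mir133a-1hg. Mir1b (chr18:10785446-10785567, plus strand) lies in an intron of Mib1, opposite to Mir1a-2, which had no row.

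How far each gene could be counted depended on its copies, since the tables total multiply placed reads apart from the genes (25.1% of the first library and 25.2% of the second), and the gene counts are taken here not to hold them. The hairpins of Mir133a-1 and Mir133a-2 share a run of 31 bases, longer than a mature miRNA, and those of Mir1a-1 and Mir1a-2 share 28. Mir133a-1 and Mir133a-2 had 0 reads in both libraries, which for uniquely placed reads allows a level of at most 0.388 CPM in the first library and 0.376 CPM in the second. Mir1a-1 had 4 and 3 reads. These values set no limit on mature arms of miR-1 or miR-133a, the defining miRNAs of striated muscle, that lie in the shared runs. Reads of such arms would match more than 1 hairpin. The 5p arm of Mir1a-1 is not among them, as no run longer than 14 of its bases occurs in another annotated hairpin. The arm miR-133b-3p printed above shares 21 of its 22 bases with both Mir133a hairpins, so reads that lack its last base would not be unique and the level of Mir133b is uncertain. For Mir206, Mir208a, Mir208b and Mir499 no run longer than 13 bases occurs in another annotated hairpin. The row of Mir133c, a further relative, held 0 reads in both libraries.

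The share of the 9 genes among counted reads differed between the pools, and it holds no multiply placed reads. Together they held 26012 reads in replicate 1 and 1633 in replicate 2. This was 0.336% of the sense-assigned reads of replicate 1 (exact Clopper-Pearson 95% interval 0.332% to 0.340%) and 0.0205% of replicate 2 (0.0195% to 0.0215%), or 0.178% ± 0.223 (SD, n = 2). Without Mir206 the shares were 0.0179% and 0.0105%, a ratio of 1.71 between the libraries against 16.4 with it. Intervals cover counting error only, as no molecular identifiers are recorded.

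Mir206, the miRNA gene restricted to skeletal muscle, was the highest member. It had 24624 reads in replicate 1, or 3184 CPM, and 797 reads in replicate 2, or 99.8 CPM. It ranked 52 among all genes in the first library and 187 in the second. Its mean of 1642 ± 2181 CPM (SD, n = 2) therefore describes neither library. For each Mir206 read there were 61.8 reads of the smooth muscle gene Mir143 in replicate 1 and 1952 in replicate 2.

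Mir208b, the gene in the slow and fetal myosin Myh7, had 851 reads in replicate 1 and 712 in replicate 2. Its levels of 110 and 89.2 CPM lay close together, at 99.6 ± 14.7 CPM (SD, n = 2). Mir499 had 297 reads against 54, or 38.4 and 6.76 CPM, at 22.6 ± 22.4 CPM (SD, n = 2). Mir133b, which shares its locus with Mir206, had 193 reads against 20, or 24.95 and 2.51 CPM, at 13.7 ± 15.9 CPM (SD, n = 2). Mir499 and Mir133b were thus high in replicate 1 and low in replicate 2, whereas Mir208b was at a like level in both.

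The lowest members with reads were Mir208a, Mir1b and Mir1a-1, none of which reached 10 CPM in either library. Mir208a, in the adult cardiac myosin gene Myh6, had 35 reads in replicate 1 and 25 in replicate 2, or 4.53 and 3.13 CPM. Mir1b had 8 and 22 reads, or 1.03 and 2.76 CPM, and was the only 1 of the 7 genes with reads that was lower in replicate 1. Mir1a-1 stood at 0.517 and 0.376 CPM, with overlapping counting intervals.

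By mean level the order was Mir206, Mir208b, Mir499, Mir133b, Mir208a, Mir1b and Mir1a-1. The gaps between Mir206 and Mir208b, between Mir499 and Mir133b, and between Mir133b and Mir208a were smaller than the larger SD of each pair. Mir206 stood above Mir208b and Mir499 above Mir133b in both libraries all the same. In replicate 2 both Mir208a and Mir1b stood above Mir133b, so the place of Mir133b is not settled. Mir208b exceeded Mir499 by 77.0 CPM, more than the SD of either. A small RNA read covers a mature arm and not the hairpin, but dividing CPM by hairpin length left the order of these 7 genes by mean level as it was. Per 100 bases of hairpin, Mir206 stood at 4361 and 137 CPM in replicates 1 and 2, and Mir208b at 143 and 116 CPM.

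**Figure D1:**
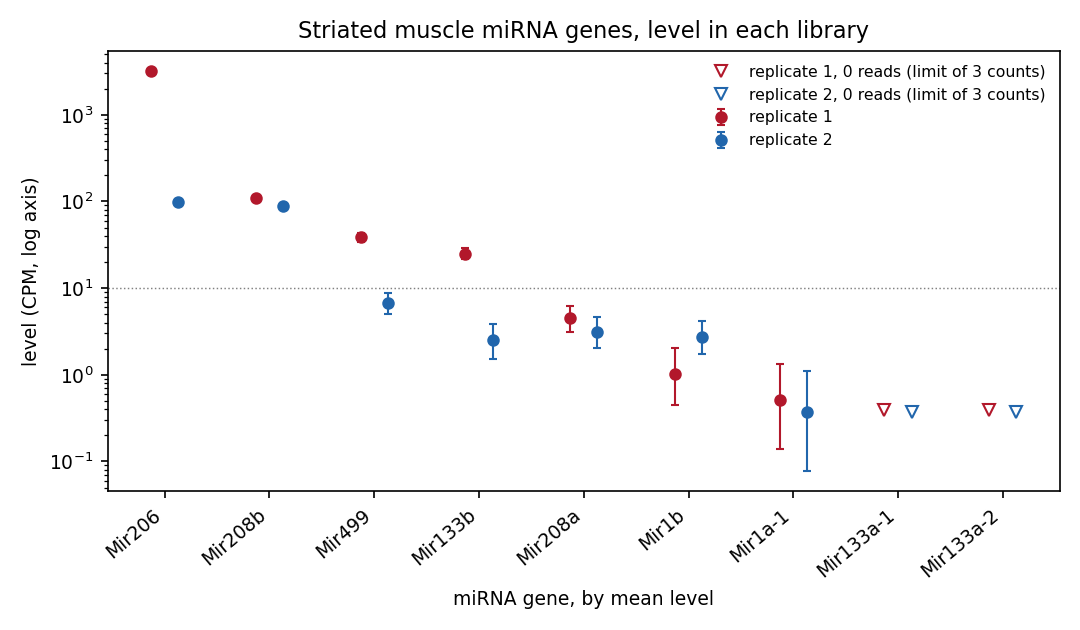
Level of each of the 9 striated muscle miRNA genes in CPM on a log axis, replicate 1 in red and replicate 2 in blue. Bars are exact Poisson 95% counting intervals, open triangles mark genes with 0 reads at the limit of 3 counts, and the dotted line is 10 CPM. Mir206 stands at 3184 and 99.8 CPM in the libraries and Mir208b at 110 and 89.2 CPM.

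The make-up of the striated muscle reads differed between the libraries as well. Mir206 supplied 94.7% of them in replicate 1 (95% interval 94.4% to 94.9%) and 48.8% in replicate 2 (46.4% to 51.3%). Mir208b supplied 3.27% and 43.6%. In replicate 1 there were 28.9 reads of Mir206 for each of Mir208b (27.0 to 31.0), and in replicate 2 there were 1.12 (1.01 to 1.24). Among the reads other than those of Mir206, Mir208b made up 61.3% in replicate 1 and 85.2% in replicate 2, Mir499 21.4% and 6.46%, and Mir133b 13.9% and 2.39%.

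The proportions of single genes to each other were then compared, first for the pairs that share a locus. Mir208b gave 24.3 reads for each read of Mir208a in replicate 1 (95% interval 17.3 to 35.1) and 28.5 in replicate 2 (19.1 to 44.3), and the intervals overlap. The 2 genes lie 26557 bases apart in neighbouring myosin genes and carry the same seed. Mir206 gave 128 reads for each of Mir133b in replicate 1 (111 to 148) and 39.9 in replicate 2 (25.6 to 65.6), and these intervals do not overlap. They cover counting error only, and not the reads of Mir133b that may be missing because they also match the Mir133a hairpins. Across loci, Mir208b on chromosome 14 gave 2.87 reads for each of Mir499 on chromosome 2 in replicate 1 (2.51 to 3.28) and 13.2 in replicate 2 (9.99 to 17.7), so the myosin intron genes did not keep a common proportion. The 5p arm of Mir1a-1 and that of Mir206 are printed because these genes belong to 1 family and could be set side by side on this arm only, the seed again in capitals.
miR-206-5p: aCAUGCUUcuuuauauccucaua
miR-1a-1-5p: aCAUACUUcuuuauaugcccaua
They were identical at 20 of 23 positions and at 6 of the 7 seed bases. The 3p arms of these genes were not compared.

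**Figure D2:**
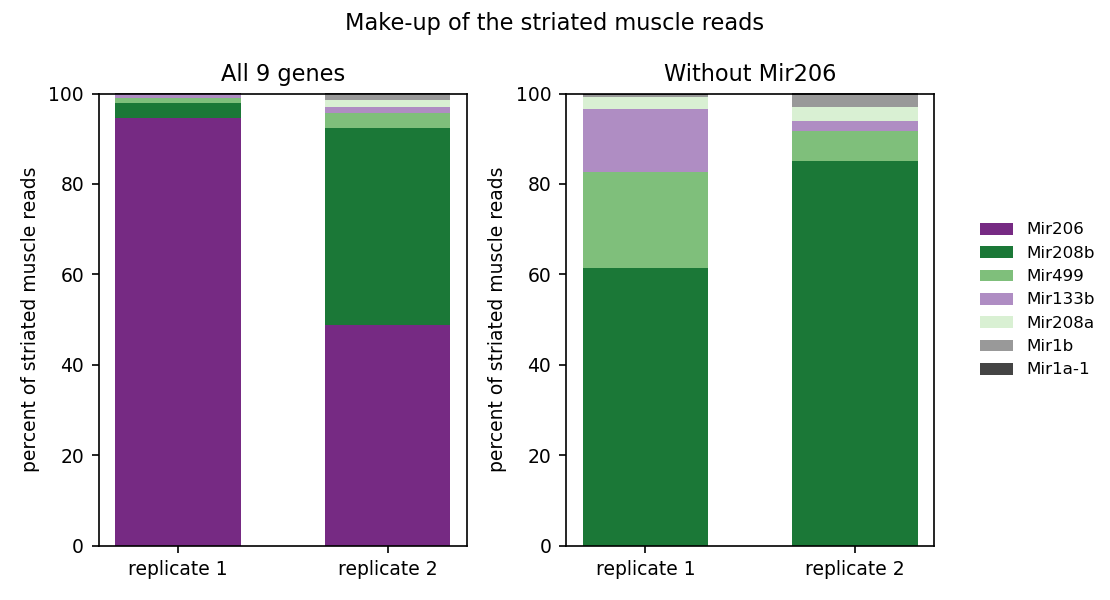
Percent of the striated muscle reads supplied by each gene in replicate 1 and replicate 2, for all 9 genes on the left and without Mir206 on the right. Mir206 takes 94.7% of the reads in replicate 1 and 48.8% in replicate 2, and among the rest Mir208b takes 61.3% and 85.2%.

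The comparison between the libraries was made over the 289 genes whose mean reached 10 CPM, with trimmed mean of M values (TMM) scaling and a two-sided exact binomial test. A gene was called at a Benjamini-Hochberg adjusted p under 0.05 and at least 2-fold. The test compares these 2 libraries and carries no spread among animals. By this rule 7.96% of all tested genes were called, 7.27% higher in replicate 1 and 0.692% lower. Mir206 was 28.1-fold higher in replicate 1 (95% interval 26.2 to 30.2), with an adjusted p too small for the computation to hold. Mir133b was 8.59-fold higher (5.53 to 14.7; exact binomial test, adjusted p = 7.07e-33) and Mir499 4.97-fold higher (3.73 to 6.82; adjusted p = 1.44e-36). Mir208b was at a ratio of 1.09 (0.983 to 1.20; adjusted p = 0.125) and was not called. Its adjusted p was 5.74e-05 with scaling by total assigned reads and 0.0381 with TMM over all genes, by the same exact test, but its ratio stayed under 2-fold.

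Mir206, Mir133b and Mir499 ranked 1, 2 and 5 of 289 by this ratio, and Mir208b ranked 111. Their intervals do not overlap that of Mir208b. Mir133b and Mir499 passed the expression minimum only through replicate 1, where they were high, so their place among the 289 rests on a minimum set on the mean. Both were also called when every gene with a read was admitted, but a minimum in both libraries left them untested. When 10 CPM was required in both libraries, Mir206 and Mir208b were left and Mir206 was called, against 5.42% of the 277 genes then tested that were higher in replicate 1.

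The 3 genes with reads but below the minimum could be tested only when every gene with a read was admitted. Among the 751 genes, 4.39% were then higher in replicate 1 and 2.93% lower. Mir1b, with 8 reads against 22, was 2.91-fold higher in replicate 2 (95% interval 1.30 to 7.85; exact binomial test, adjusted p = 0.0183), opposite in direction to Mir206. It was called with each of the other scalings too, which were tried on it after its values were seen, at ratios of 2.56 to 2.93 and adjusted p of up to 0.0477. Its locus also held 6 reads on the opposite strand in replicate 1 and 11 in replicate 2. Whether the reads counted for Mir1b come from its mature miRNA was not tested. Mir208a was at a ratio of 1.27 in replicate 1 over replicate 2 (0.741 to 2.22; adjusted p = 0.595), and Mir1a-1 at 1.17 (0.205 to 8.28; adjusted p = 1). For Mir208a the interval does not exclude a level 2-fold higher in replicate 1.

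**Figure D3:**
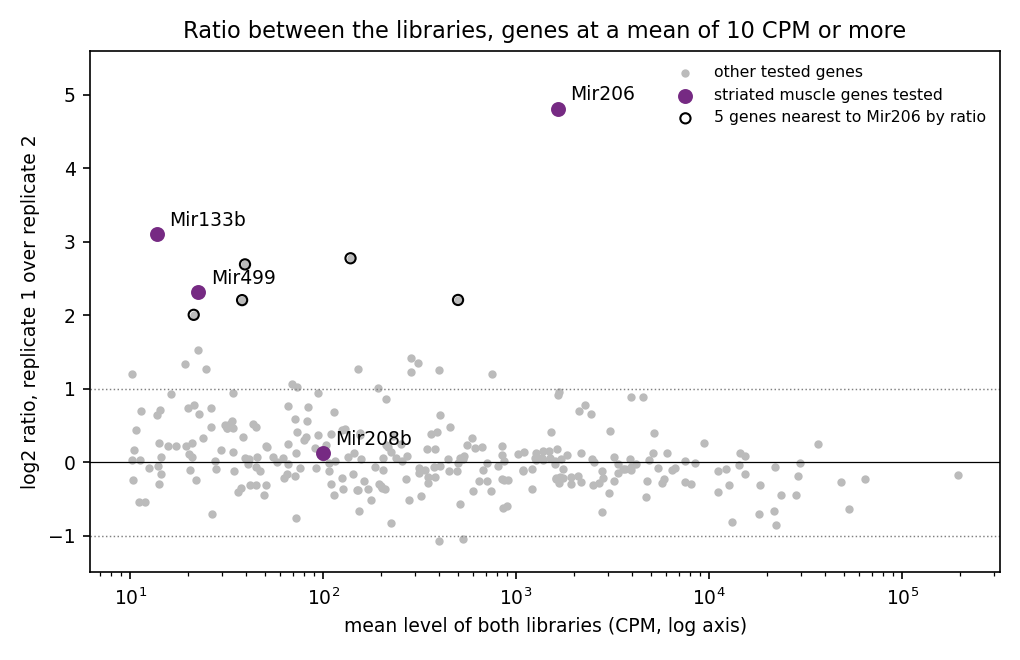
Log2 ratio of replicate 1 over replicate 2 against mean level in CPM (log axis) for the 289 tested genes. Purple points are the 4 striated muscle genes tested, ringed points the 5 genes nearest to Mir206 by ratio, and dotted lines mark 2-fold. Mir206 stands highest at 4.81, Mir133b and Mir499 follow at 3.10 and 2.31, and Mir208b lies at 0.12.

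The genes outside the muscle set whose ratio was nearest to that of Mir206 were Mir193b, Mir129-1, Mir350, Mir129-2 and Mir1249. Likeness here is the distance in log2 ratio over 2 libraries, for genes with at least 100 reads in total. All 5 were well short of Mir206: Mir193b, the nearest, had 1900 reads against 252, a ratio of 6.85 and a distance of 2.04 on the log2 scale. Mir129-1 had 536 reads against 75 and Mir129-2 494 against 97; they are numbered copies of 1 miRNA, so reads that match both may be missing. Mir350 had 6494 reads against 1278 and Mir1249 271 against 61. They lie on chromosomes 16, 6, 1, 2 and 15 in the order first given. None is among the cell type markers listed below, but Mir193b is on the list of muscle differentiation genes.

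Other miRNA genes with roles in muscle differentiation, not restricted to striated muscle, were read next. Of 31 listed, 27 had a row and 25 were tested, with 1 higher in replicate 1 and 0 lower, where 7.27% and 0.692% of all tested genes were called. The gene that passed was Mir193b. The median log2 ratio of the 25 was -0.08, against 0.02 over all tested genes. The most abundant of them were Mir322, which promotes cell cycle exit in myoblasts, at 17414 and 19069 CPM, Mir23a at 14855 and 21338 CPM, and Mir214 at 6885 and 6410 CPM. Apart from Mir193b their log2 ratios ran from -0.70 for Mir23a to 0.65 for Mir128-2.

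Markers of tissues that the pools could hold were read in the same way, as summed levels. The skeletal muscle list stood at 3209 CPM in replicate 1 and 103 CPM in replicate 2, with Mir133a-1 and Mir133a-2 at 0 and Mir1a-2 without a row. Mir206 supplied 24624 of its 24821 reads in replicate 1 and 797 of 820 in replicate 2. The ratio of this list given below is thus mainly that of Mir206. The list of cardiac and slow muscle, Mir208a, Mir208b and Mir499, stood at 153 and 99.1 CPM. The smooth muscle list of Mir143 and Mir145a was at 202084 and 197398 CPM, and the endothelial gene Mir126a at 29029 and 29049 CPM. The ratio of replicate 1 over replicate 2 in CPM was 1.02 and 0.999 for these 2 lists and 31.2 for skeletal muscle, and with TMM scaling it was 0.902, 0.881 and 27.5. Within the smooth muscle list Mir145a stood at 5317 and 2540 CPM, a TMM-scaled ratio of 1.84. It was not called only because this is under 2-fold, as its adjusted p was too small for the computation to hold.

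Several other lists had higher sums in replicate 1 in CPM, with smaller gaps and no test of the sums. The erythroid list stood at 1240 and 591 CPM, and of its 3 genes Mir451a alone was called, with 8396 reads against 3336. Mir144 stood at 139 and 159 CPM and Mir486 at 15.8 and 13.3 CPM, so the higher sum came mainly from Mir451a. Mir122, the hepatocyte gene, stood at 1821 and 1210 CPM. Its TMM-scaled ratio of 1.33 was under 2-fold and so not called (exact binomial test, adjusted p = 4.77e-102). The pancreatic list of Mir216a, Mir216b and Mir217 was at 6.08 and 2.88 CPM, with no gene high enough to test. The list for stratified epithelium went the other way and was lower in replicate 1, at 28559 and 38234 CPM. Within it Mir203 stood at 17200 and 27343 CPM and Mir205 at 11359 and 10891 CPM. The neuronal list stood at 1401 and 1128 CPM, nearly all of it Mir137 at 1399 and 1126 CPM. The Mir124a genes stood at 0, but they are numbered copies of 1 miRNA, so reads that match several may be missing. The gastrointestinal epithelial list stood at 4171 and 3774 CPM, and the leukocyte list at 1355 and 1247 CPM. With TMM scaling the ratios of the last 2 sums turned below 1, to 0.974 and 0.957. The part of these tissues in the muscle values was not tested.

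**Figure D4:**
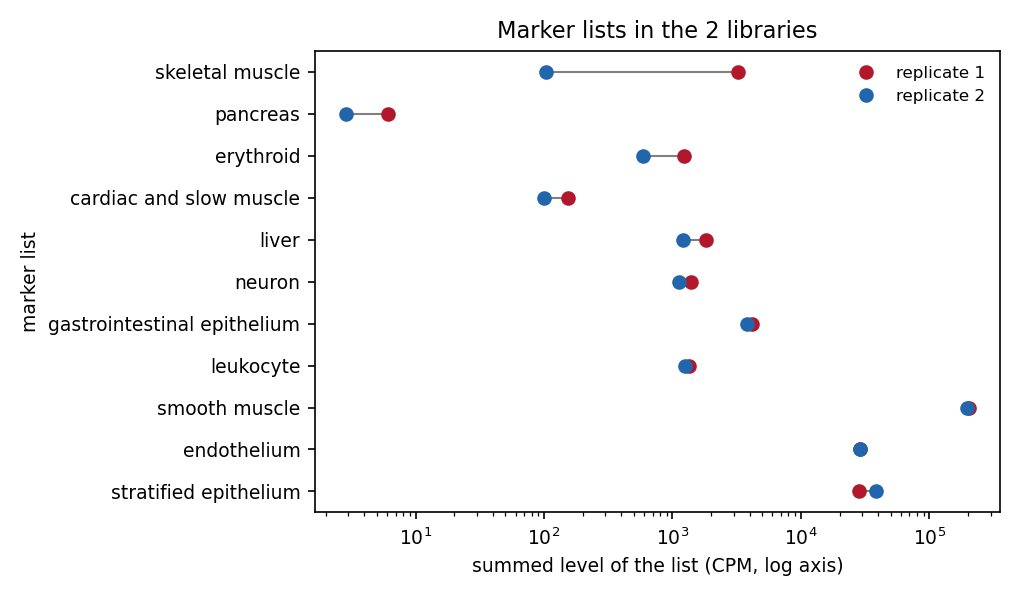
Summed level of each marker list in CPM (log axis), replicate 1 in red and replicate 2 in blue, ordered by their ratio. Skeletal muscle, nearly all of it Mir206, spans 3209 to 103 CPM, while smooth muscle and endothelium lie at almost the same level in both libraries.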

How the data were processed

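The deposited tables hold raw read counts per gene, ignoring strand and for each strand. Per the file headers, the assembly was mm10 and the annotation GENCODE M4. The sources used here do not name the aligner or counter. The strand column with the larger total was used. Reads without a gene (unmapped 21.3% and 20.3%, outside any counted gene 4.51% and 4.56%, and multiply placed) were left out of library sizes. Of 1973 identifiers, 1894 matched GENCODE M21 (GRCm38), which gave symbols and positions. Hairpins of that release were searched for shared runs.

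TMM factors came from genes whose mean reached 10 CPM, in edgeR 4.0.16 (R 4.3.3), with 0.5 added to counts for ratios. DESeq2 1.42.0 gave alternative size factors. Tests used scipy 1.17.1 under Python 3.11.15. They were checked on simulated Poisson counts with planted ratios and known scaling. That check did not cover spread beyond counting error. Members and lists were chosen with earlier results of these data known. The genes named are all members, relatives with a row, the 5 genes nearest to Mir206 by ratio, its neighbours in level, and up to 3 highest genes of a list. Mir128-2, which ends a range, was named after its value was seen.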

Additional observations from a re-analysis of the deposited data

Results flagged for a closer look

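Reads on the strand opposite to a member, which the levels above leave out, were over 3 counts in both libraries at Mir1b alone, with 6 reads in replicate 1 and 11 in replicate 2. Mir1a-2 is annotated on that strand and had no row. Mir208a had 0 and 2 opposite reads, and the other members had 0.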

How the results depend on the processing

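Of the 9 genes, 4 could be tested and 3 were called between the libraries with TMM, with DESeq2 size factors, with total assigned reads, without a minimum fold, with the count that ignores strand, and with TMM over all genes (added after seeing the data). Requiring 10 CPM in both libraries left 1 called, Mir206, since Mir133b and Mir499 were then not tested, and admitting every gene with a read gave 4, adding Mir1b. Over all tested genes 23 of 289 were called with TMM (7.96%), with DESeq2 size factors and with TMM over all genes. The count that ignores strand gave 22 of 296, and 10 CPM in both libraries gave 17 of 277. With every gene that had a read 55 of 751 were called. Without a minimum fold 220 of 289 were called, so the 3 of 4 members called there were near the share of all genes. With total assigned reads, the median log2 ratio over the 289 genes was 0.21 in place of 0.02, and the calls were 29 higher and 0 lower in replicate 1 in place of 21 and 2. Across scalings, pseudocounts and strand, the log2 ratio ran from 4.80 to 4.99 for Mir206, 3.07 to 3.28 for Mir133b, 2.30 to 2.49 for Mir499 and 0.11 to 0.30 for Mir208b. The share of the 9 genes was 0.178% of sense-assigned reads and 0.0142% without Mir206. A single library gave 0.336% or 0.0205%, each within 1 SD of the mean, as any value must be with 2 libraries. No paired analysis was possible because there is 1 group.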

Other observations

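Among the tested genes, the neighbours of Mir206 in level were Mir22 at 3427 CPM and Mir92-1 at 3132 CPM in replicate 1, and Mir199a-2 at 100.2 CPM and Mir673 at 99.2 CPM in replicate 2. Within the muscle set the ranks of Mir208b among all genes were 193 and 190, those of Mir499 244 and 297, and those of Mir133b 262 and 345.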
